A study of Mus musculus with 8 samples.

Results

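The genes described here were 45 genes of the smooth muscle contractile apparatus and its cytoskeleton: smooth muscle actins, myosins, actin-binding and regulatory proteins, the SRF coactivators, and, as contrast, nonmuscle myosins and vimentin. They were found by gene symbol among the 18533 symbols of the count files, 43 under the listed symbol and 2 (*Mkl1* and *Mkl2*) under the newer names *Mrtfa* and *Mrtfb*. They were measured in primary cultured smooth muscle cells of the mouse aorta (MASMCs), 4 samples from WT and 4 from *Hint1*-/- mice, a line whose *Hint1* deletion is not restricted to smooth muscle. All 8 samples had been exposed to PDGF-BB, a growth factor, at 20 ng/mL for 24 hours, so each value is a level under PDGF-BB, and cells without it were not analysed here. The mice were male and aged 4 to 6 weeks, and adventitia and endothelium were stripped before collagenase digestion. The study's methods describe the tissue once as thoracic aorta and once as whole aorta. They do not say whether the 4 samples of a genotype came from separate mice or cultures, so the p-values measure only the spread between these samples, which may be technical.

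Smooth muscle cells shorten when myosin filaments built from the heavy chain *Myh11* pull on thin filaments of alpha and gamma smooth muscle actin, after myosin light chain kinase has phosphorylated the regulatory light chain and until myosin phosphatase removes the phosphate. Calponin, caldesmon, tropomyosin, and transgelin coat the thin filaments, and dense plaques, desmin, and vimentin anchor them. Many of these genes are driven by serum response factor (SRF), which binds the CArG box together with myocardin or the myocardin-related factors, and PDGF-BB is known to lower this program in cultured smooth muscle cells while nonmuscle myosin and vimentin stay high.

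Each sample held 20778077 to 20888041 estimated counts, and the members took 1.75% to 1.81% of them in WT and 1.69% to 1.71% in *Hint1*-/- samples. The presence of smooth muscle transcripts was read from 8 markers, which do not show how pure the cultures were. *Acta2*, *Tagln*, *Smtn*, *Lmod1*, *Cnn1*, and *Myh11* were detected in every sample, whereas *Des* had 28 to 59 counts and *Myocd* 7 to 14 counts per sample. The 8 macrophage markers described below summed to 2487 to 2853 CPM (counts scaled to library size) in WT samples. All 21 members enriched in smooth muscle summed to 3479 to 3693 CPM there. *Lyz2*, the macrophage marker with the most counts, had 23425 to 27662 counts in WT samples, and *Acta2* had 15956 to 17855. These sums and counts are not scaled to gene length, so they do not rank the genes by level. The share of macrophages or other cells in the cultures was not tested. *Hint1* itself had 2272, 2336, 2364, and 2301 counts in WT and 713, 748, 778, and 715 counts in *Hint1*-/- samples (log2 fold change −1.64). *Hint1* counts thus remained in every *Hint1*-/- sample, at 35.6 ± 1.46 CPM against 111 ± 1.72 CPM in WT (SD, n = 4 each), and which part of the gene was removed is not given in the sources used here. Of the 45 members, 43 passed edgeR's filter on low counts and were tested among 13535 genes in all. *Myocd* and *Pdlim3* did not pass it.

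The CArG box was looked for in RefSeq promoter windows of GRCm38.p6, which run from 250 bases before to 50 bases after a transcript start and were found for 40 of the 45 members. *Actg2*, *Csrp2*, *Myh11*, *Myocd*, and *Tagln* had no window. The box reads the same on both strands. An exact match lay in the window of 5 of the 40 members (12.5%), which were *Cnn2*, *Myl6*, *Myl9*, *Srf*, and *Vcl*, against 1.81% of 27025 genes. When 1 C or G was allowed in its run of A and T, 11 of 40 members (27.5%) and 11.3% of all genes held a match. The stretches below are given because they place the box beside members that fell (*Acta2*, *Myl9*, and *Vcl*) and members that were not called (*Srf* and *Cnn2*). They are written 5′ to 3′ on the gene's strand, with the matches in capitals.
Acta2, chr19:34255438-34255467, minus strand, 1 C in the run: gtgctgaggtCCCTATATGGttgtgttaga
Acta2, chr19:34255388-34255417, minus strand, 1 G in the run: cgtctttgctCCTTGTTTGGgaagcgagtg
Myl9, chr2:156775278-156775399, plus strand, the first match exact: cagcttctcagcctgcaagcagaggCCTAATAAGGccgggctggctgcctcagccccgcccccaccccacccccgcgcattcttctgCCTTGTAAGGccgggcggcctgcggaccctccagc
Vcl, chr14:20929148-20929205, plus strand, exact: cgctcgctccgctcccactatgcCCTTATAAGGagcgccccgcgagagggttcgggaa
Srf, chr17:46556190-46556269, minus strand, both exact: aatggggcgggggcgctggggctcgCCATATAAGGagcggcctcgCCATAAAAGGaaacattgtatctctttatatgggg
Cnn2, chr10:79988519-79988578, plus strand, exact: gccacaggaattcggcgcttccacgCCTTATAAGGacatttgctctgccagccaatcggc
The matches began 84 and 34 bases before the RefSeq start of *Acta2*, 161 and 99 bases before that of *Myl9*, 227 bases before that of *Vcl*, 82 and 62 bases before that of *Srf*, and 56 bases before that of *Cnn2*. A transcript of *Acta2* in GENCODE M21 starts farther upstream, so its 2 matches lie in an annotated first exon there and upstream of the start in RefSeq. A match describes the letters of the window, and no binding was measured.

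*Myh11*, *Actg2*, *Cnn1*, and *Des* were lower in *Hint1*-/- MASMCs by more than 1.5 times, *Acta2* was about 30.0% lower, and *Tpm1*, *Lmod1*, *Ppp1r14a*, *Synpo2*, and *Myl9* fell by less. *Srf*, *Vim*, *Myh10*, *Myh9*, *Mylk*, and *Cald1* were not called. Of the 43 members tested, 19 (44.2%) passed an adjusted p of 0.05 by edgeR's quasi-likelihood test, against a background of 21.5% of all tested genes. Of these, 15 were lower (34.9%, background 10.2%) and 4 were higher (9.30%, background 11.2%). With a fold change over 1.5 also required, 5 members were called (background 2.83%), of which 4 were lower (background 1.49%) and 1, *Smtnl2*, was higher (background 1.34%). Abundant genes were called more often, and among 4432 genes with a mean of at least 50 CPM (counts scaled to library size) the share called was 29.7%. In 18 of the 43 members (41.9%) the 4 WT and 4 *Hint1*-/- values did not overlap, against 23.0% of all tested genes. The median log2 fold change was −0.043 over the members and 0.00 over all tested genes. In bulk RNA, fewer cells of a type and less RNA per cell cannot be told apart. Under upper-quartile normalization the split of called members was 18 lower and 2 higher. The number of members called higher was 1 without WT replicate 2, WT replicate 4, or *Hint1*-/- replicate 1 and 2 without WT replicate 3 or *Hint1*-/- replicate 2, and the number past the fold limit was 3 without WT replicate 2 or *Hint1*-/- replicate 2.

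The members were divided into 2 classes by where they are known to be expressed, a division made with earlier results of these data known. Of the 15 lower members, 12 belonged to the class enriched in smooth muscle. For that reason the contrast between the classes is a description and not a separate result. Of the 21 members enriched in smooth muscle, 19 were tested and 14 were called, 12 lower and 2 higher (*Smtn* and *Smtnl2*), with a median log2 fold change of −0.29. The shares were 73.7% called, 63.2% lower, and 10.5% higher, against 21.5%, 10.2%, and 11.2% of all tested genes. The summed level of this class was 3479 to 3693 CPM in WT and 3125 to 3229 CPM in *Hint1*-/- samples, with no overlap. Of the 24 members expressed in many cell types, 5 were called, a share close to the background of 21.5%. *Tpm3*, *Myl12b*, and *Vcl* were lower and *Tagln2* and *Actn1* were higher, each by a log2 fold change of no more than 0.13 in size. The median of this class was −0.015. No test compared the 2 classes with each other.

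**Figure D1:**
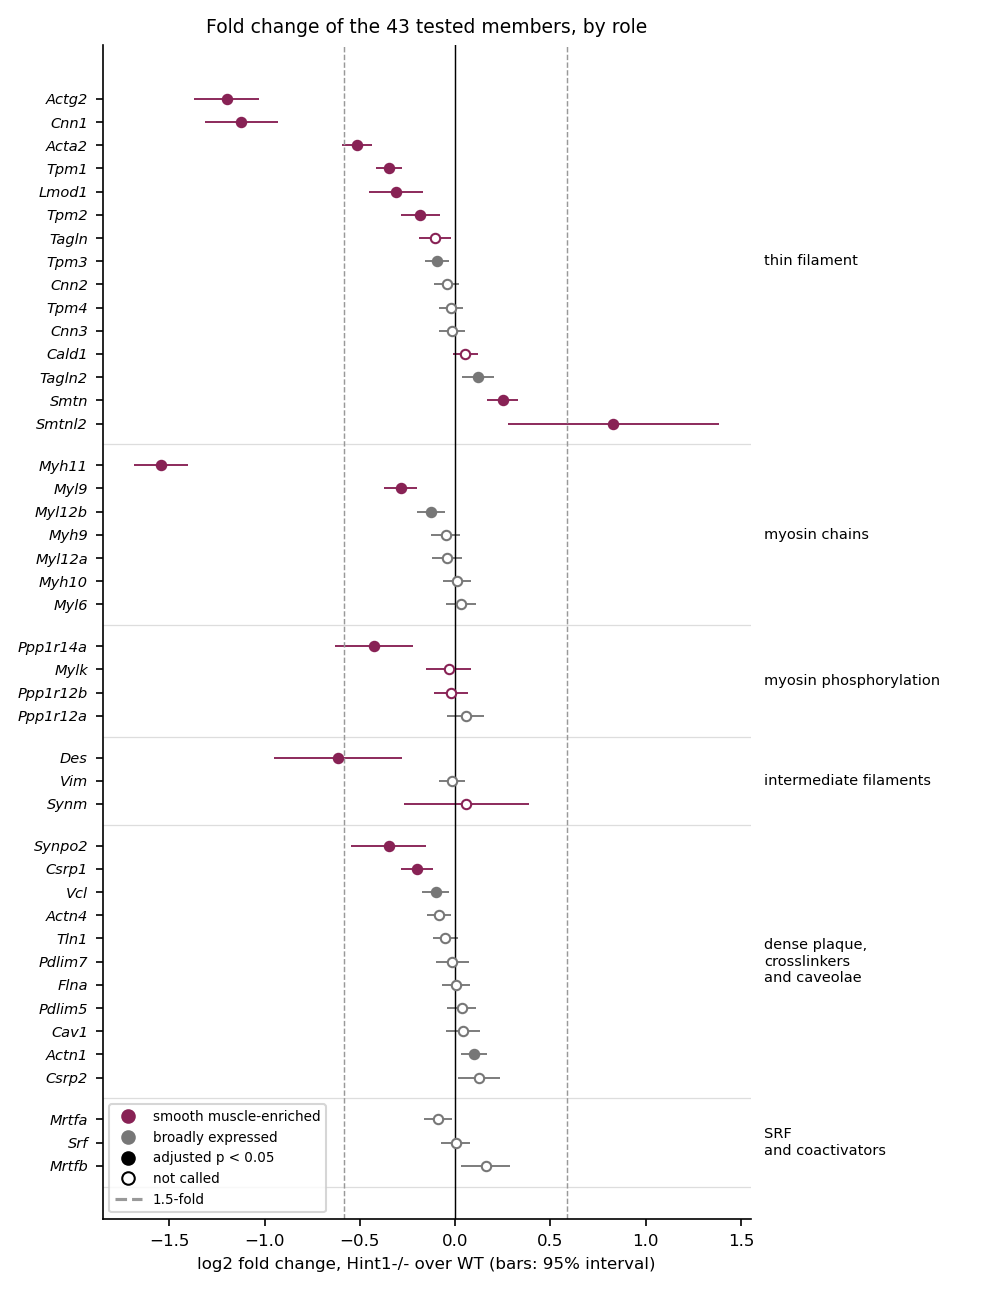
Log2 fold change of *Hint1*-/- over WT (horizontal axis) of each of the 43 tested members, grouped by role, as points with 95% intervals from edgeR's quasi-likelihood fit on 4 samples per genotype. Filled points passed an adjusted p of 0.05, open points did not, and dashed lines mark a 1.5-fold change; *Myh11*, *Actg2*, and *Cnn1* lie farthest to the left, at −1.54, −1.20, and −1.12.

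Among the 15 thin filament genes, 10 were called, 7 lower (background 10.2%) and 3 higher (background 11.2%). *Acta2*, which encodes alpha smooth muscle actin (chromosome 19, mm10, 34241090 to 34255590), had 17467, 15956, 17855, and 17809 counts in WT and 12142, 12331, 11882, and 11640 counts in *Hint1*-/- samples. Every *Hint1*-/- sample lay well below the lowest WT sample, with means of 826 ± 44.6 and 578 ± 15.6 CPM (SD, n = 4 each). *Acta2* thus fell by 0.51 on the log2 scale (SE 0.038, adjusted p = 1.4e-08). *Actg2*, gamma smooth muscle actin, which is typical of visceral muscle, had 345, 301, 363, and 358 counts in WT and 166, 147, 139, and 139 in *Hint1*-/- samples. The genotypes were far apart (log2 fold change −1.20, SE 0.081, adjusted p = 3.2e-09).

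*Cnn1*, the calponin of differentiated smooth muscle that slows the myosin ATPase, had 317, 283, 349, and 313 counts in WT and 153, 145, 116, and 161 in *Hint1*-/- samples. No *Hint1*-/- sample came near the WT range, and *Cnn1* fell by 1.12 on the log2 scale (SE 0.092, adjusted p = 5.0e-08). *Cnn2* and *Cnn3*, the calponins found in many cell types, were not called, with log2 fold changes of −0.043 (95% interval −0.11 to 0.023) and −0.016 (−0.083 to 0.050). *Tagln*, which encodes transgelin (SM22), had 8552, 8120, 8346, and 8644 counts in WT and 7841, 8196, 7889, and 7129 in *Hint1*-/- samples. *Hint1*-/- replicate 2 lay inside the WT range, and the log2 fold change of −0.11 (SE 0.040) missed the threshold (adjusted p = 0.070). It passed under 3 of 16 alternatives. These were leaving out WT replicate 2 (adjusted p = 0.0387) or *Hint1*-/- replicate 2 (0.0362), and upper-quartile normalization (0.0495). Exons of *Pcsk7* and *Gm48529* overlap 67.9% of the exonic bases of *Tagln*, and whether the counting used strand is not given in the sources used here. Among called members, exons of other genes also overlap 25.5% of the exonic bases of *Vcl* and 16.3% of those of *Smtn*. *Tagln2*, the paralog expressed in many cells, was higher, at 11658 to 13105 counts in WT and 12385 to 13448 in *Hint1*-/- samples (log2 fold change 0.12, adjusted p = 0.041), and the ranges overlapped. Its call was lost under 7 of 16 alternatives, which were upper-quartile normalization and leaving out any of WT replicates 2, 3, and 4 or *Hint1*-/- replicates 1, 2, and 3 (adjusted p up to 0.116).

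The tropomyosins stiffen the thin filament and gate myosin's access to actin. *Tpm1* had 11001, 10601, 10385, and 10592 counts in WT and 8418, 8061, 8667, and 8075 in *Hint1*-/- samples. The genotypes did not overlap (log2 fold change −0.35, SE 0.034, adjusted p = 4.4e-07). *Tpm2* fell by 0.18 on the log2 scale (adjusted p = 0.010) with 1 WT sample inside the *Hint1*-/- range, *Tpm3* fell by 0.094 (adjusted p = 0.034), and *Tpm4* was not called (log2 fold change −0.021). The call of *Tpm3* was lost when WT replicate 1 or 2 or *Hint1*-/- replicate 1, 2, or 4 was left out (adjusted p up to 0.0982). *Lmod1*, leiomodin, which starts new actin filaments in smooth muscle, had 372, 377, 341, and 315 counts in WT and 299, 268, 276, and 281 in *Hint1*-/- samples. It was lower in all 4 *Hint1*-/- samples (log2 fold change −0.31, SE 0.068, adjusted p = 0.0026).

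Not every gene of this class was lower. *Smtn*, smoothelin, an actin-binding protein of contractile smooth muscle, rose from 3073 to 3456 counts in WT to 3747 to 3953 in *Hint1*-/- samples without overlap (log2 fold change 0.25, SE 0.038, adjusted p = 9.0e-05). *Smtnl2*, a smoothelin-like gene, had 10, 11, 15, and 12 counts in WT and 20, 25, 14, and 26 in *Hint1*-/- samples. *Hint1*-/- replicate 3 lay inside the WT range (log2 fold change 0.83, SE 0.26, adjusted p = 0.031). That call was lost in DESeq2 (adjusted p = 0.113) and when any 1 of 6 samples was left out (adjusted p of 0.0518 to 0.106), namely WT replicates 1, 2, and 4 and *Hint1*-/- replicates 1, 2, and 4. *Cald1*, caldesmon, was not called (log2 fold change 0.053, 95% interval −0.014 to 0.12).

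**Figure D2:**
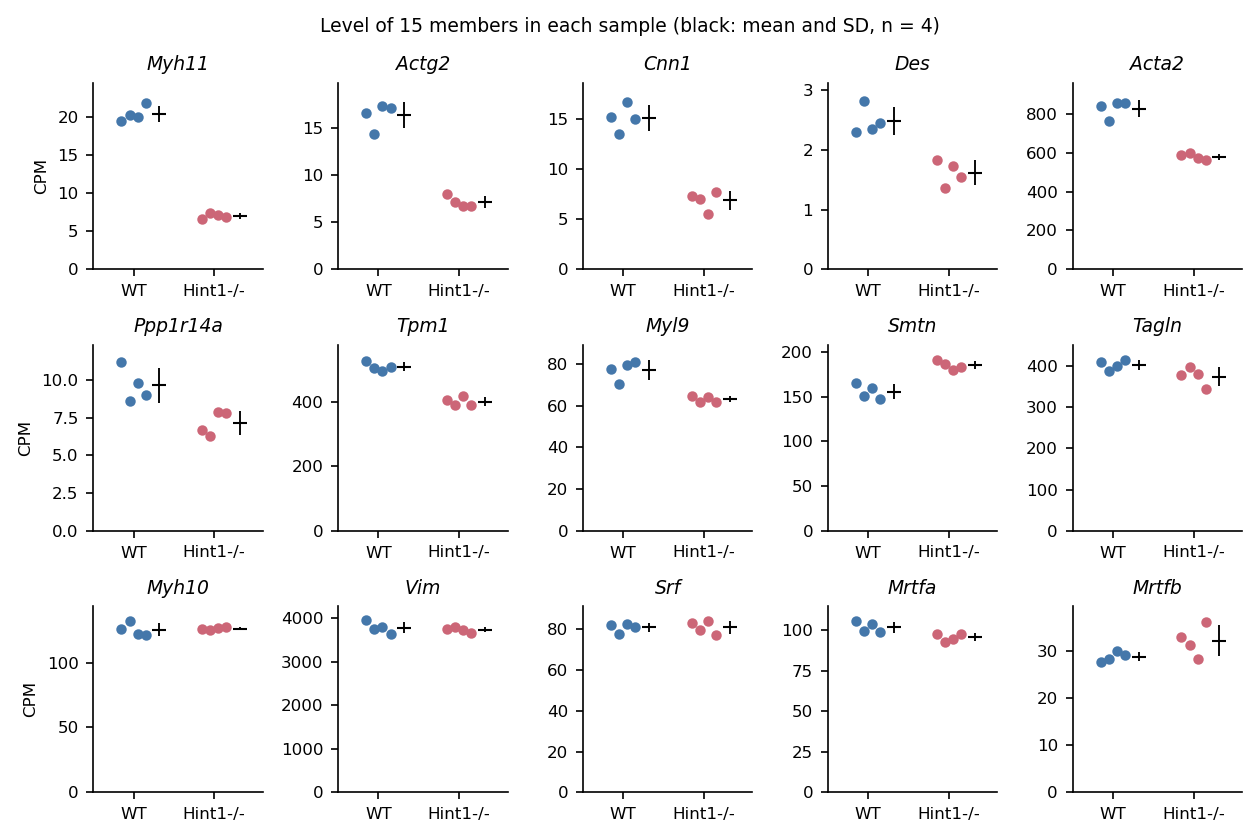
Level in CPM (vertical axis, from 0) of 15 members in each WT (blue) and *Hint1*-/- (red) sample, with the mean and SD of 4 samples in black. The genotypes separate for *Myh11*, *Actg2*, *Cnn1*, *Des*, *Acta2*, *Ppp1r14a*, *Tpm1*, *Myl9*, and *Smtn*, of which only *Smtn* is higher in *Hint1*-/- samples, whereas the points of *Tagln*, *Myh10*, *Vim*, *Srf*, and *Mrtfb* overlap.

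Of the 7 myosin chains, 3 were lower (background 10.2%) and none was higher (background 11.2%). *Myh11*, the smooth muscle myosin heavy chain (chromosome 16, mm10, 14194535 to 14291372), had the lowest *Hint1*-/- level relative to WT of all tested members. It had 406, 424, 417, and 456 counts in WT and 136, 152, 149, and 142 in *Hint1*-/- samples, or 20.4 ± 1.03 CPM and 6.98 ± 0.348 CPM (SD, n = 4 each). *Myh11* fell by 1.54 on the log2 scale (SE 0.067, adjusted p = 5.3e-12), and all 16 alternatives kept it past the threshold, between −1.57 and −1.51. The nonmuscle heavy chains among the members were not called. *Myh10*, nonmuscle myosin IIB, had 2618, 2776, 2556, and 2530 counts in WT and 2603, 2589, 2625, and 2650 in *Hint1*-/- samples. The ranges overlapped, and the 95% interval of the log2 fold change ran from −0.063 to 0.081. *Myh9*, nonmuscle myosin IIA, was not called either (−0.049, 95% interval −0.12 to 0.026).

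*Myl9*, the regulatory light chain of smooth muscle, fell from 1474 to 1683 counts in WT to 1276 to 1341 in *Hint1*-/- samples (log2 fold change −0.29, SE 0.042, adjusted p = 6.2e-05). Its paralogs *Myl12a* and *Myl12b* serve nonmuscle myosin. *Myl12b* fell by 0.13 on the log2 scale (adjusted p = 0.012), and *Myl12a* was not called (−0.043). These paralogs share 50-base stretches, 29.6% of those of *Myl12a* being found in other genes, so reads may have been split between them and their separate values are uncertain. Among the other members the largest such shares were 17% for *Tpm3*, 14.8% for *Cnn3*, 12.1% for *Tpm4*, and 7.59% for *Myl6*. The same limit holds for their small fold changes. *Myl6*, the essential light chain, was not called (0.030, 95% interval −0.048 to 0.11).

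The 4 genes that set myosin light chain phosphorylation held 1 call, near the background of 21.5%. *Ppp1r14a*, which encodes CPI-17, an inhibitor of myosin phosphatase, had 233, 180, 205, and 187 counts in WT and 139, 130, 163, and 162 in *Hint1*-/- samples. All *Hint1*-/- samples lay below the lowest WT sample (log2 fold change −0.43, SE 0.098, adjusted p = 0.0038). *Mylk*, the myosin light chain kinase, was not called (−0.033, 95% interval −0.15 to 0.084). *Ppp1r12a* and *Ppp1r12b*, which encode targeting subunits of myosin phosphatase, were not called either, at 0.054 (−0.043 to 0.15) and −0.022 (−0.11 to 0.067).

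The intermediate filament genes differed among themselves. *Des*, which encodes desmin of muscle cells, had 48, 59, 49, and 51 counts in WT and 38, 28, 36, and 32 in *Hint1*-/- samples. The genotypes did not overlap (log2 fold change −0.61, SE 0.16, adjusted p = 0.0092). At this depth its size was loosely fixed (95% interval −0.95 to −0.28), and it lay within 1.5 times without WT replicate 2 or *Hint1*-/- replicate 2. *Vim*, vimentin, had 82191, 78491, 79239, and 75723 counts in WT and 77902, 78396, 77633, and 75834 in *Hint1*-/- samples. These ranges overlapped (log2 fold change −0.016, 95% interval −0.086 to 0.054). *Synm*, synemin, had 37 to 50 counts in WT and 43 to 48 in *Hint1*-/- samples and was not called (0.059, 95% interval −0.27 to 0.38).

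Of the 12 genes of dense plaques, actin crosslinkers, and caveolae, 11 were tested and 4 were called, 3 lower and 1 higher, beside 21.5% of all tested genes and 29.7% of those with at least 50 CPM. *Synpo2*, synaptopodin 2, an actin-bundling protein, had 137, 153, 149, and 176 counts in WT and 120, 116, 116, and 127 in *Hint1*-/- samples. The ranges did not overlap (log2 fold change −0.35, SE 0.094, adjusted p = 0.012). *Csrp1*, a LIM-domain protein of smooth muscle, fell by 0.20 on the log2 scale (adjusted p = 0.0015), and *Vcl*, vinculin of dense plaques, fell by 0.10 (adjusted p = 0.040). *Actn1*, an alpha-actinin that crosslinks actin, was higher by 0.10 (adjusted p = 0.033), and its paralog *Actn4* lay just outside the threshold (−0.084, adjusted p = 0.0503). The values of *Vcl*, *Actn1*, and *Actn4* did not overlap between genotypes, although each difference was under 0.11 on the log2 scale. *Vcl* lost its call when WT replicate 1, 2, or 3 or *Hint1*-/- replicate 2 or 3 was left out (adjusted p up to 0.123). *Actn1* lost it under upper-quartile normalization and without WT replicate 2, 3, or 4 or *Hint1*-/- replicate 1, 3, or 4 (adjusted p up to 0.0924). *Flna*, *Tln1*, *Cav1*, *Csrp2*, *Pdlim5*, and *Pdlim7* were not called, with log2 fold changes from −0.053 to 0.13. *Pdlim3* had 0 to 2 counts in WT and 0 to 3 in *Hint1*-/- samples.

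None of the transcription factor genes was called. *Srf* had 1710, 1632, 1730, and 1697 counts in WT and 1724, 1651, 1752, and 1600 in *Hint1*-/- samples. Its means were 80.9 ± 2.20 and 81.1 ± 3.27 CPM (SD, n = 4 each), and the 95% interval of the log2 fold change was −0.076 to 0.080. *Mrtfa* had 2206, 2083, 2174, and 2066 counts in WT and 2022, 1916, 1972, and 2032 in *Hint1*-/- samples. These values did not overlap, but the log2 fold change of −0.092 missed the threshold (adjusted p = 0.072). *Mrtfb* had 580, 595, 629, and 610 counts in WT and 685, 647, 592, and 753 in *Hint1*-/- samples, and *Hint1*-/- replicate 3 lay inside the WT range. *Mrtfb* was not called (log2 fold change 0.16, adjusted p = 0.070). *Myocd*, myocardin, the SRF coactivator of smooth and cardiac muscle, had 14, 11, 14, and 8 counts in WT and 9, 7, 8, and 7 in *Hint1*-/- samples. Its pooled ratio of *Hint1*-/- over WT was 0.659 (95% exact interval 0.405 to 1.06, counting error only), so a difference was not detectable at this depth. The CArG-containing stretches printed above belong to both kinds of member. Of the 11 members with a match, exact or with 1 C or G in the run, 10 were tested and 4 were called, beside 44.2% of all tested members and 21.5% of all tested genes.

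Ratios between 2 members within a sample do not depend on library scaling, and 7 were compared by two-sided exact permutation tests, for which 0.0286 is the smallest p that 4 samples against 4 allow. In 5 of the 7 ratios a smooth muscle gene was lower relative to its widely expressed partner, with no overlap. *Myh11*, *Cnn1*, *Des*, and *Myl9* had been called lower above and their partners had not been called. Their ratios restate those calls from the same counts and are not separate support. How often ratios of other gene pairs were apart was not examined. The ratio of *Myl9* over *Myl12a* also carries the uncertainty of reads shared with *Myl12b*, which was itself called lower (log2 fold change −0.13). The count of *Myh11* was 0.0150 to 0.0178 times that of *Myh9* in WT and 0.00534 to 0.00629 times in *Hint1*-/- samples, a log2 difference of −1.49 (exact permutation p = 0.0286, adjusted 0.040). *Cnn1* over *Cnn3* differed by −1.11, *Des* over *Vim* by −0.60, *Myl9* over *Myl12a* by −0.24, and *Tagln* over *Tagln2* by −0.23, each on the log2 scale with the same exact p of 0.0286 (adjusted 0.040). The last of these combines *Tagln* (log2 fold change −0.11), which was not called, with *Tagln2* (0.12), whose call was lost under 7 of 16 alternatives. This ratio also uses the same counts and is not separate support for a change in either gene. *Tpm2* over *Tpm4* differed by −0.16 (exact permutation p = 0.0857, adjusted 0.10), and the kinase-to-phosphatase ratio of *Mylk* over *Ppp1r12a* by −0.086 (exact permutation p = 0.257, adjusted 0.257). Both of these overlapped between genotypes.

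**Figure D3:**
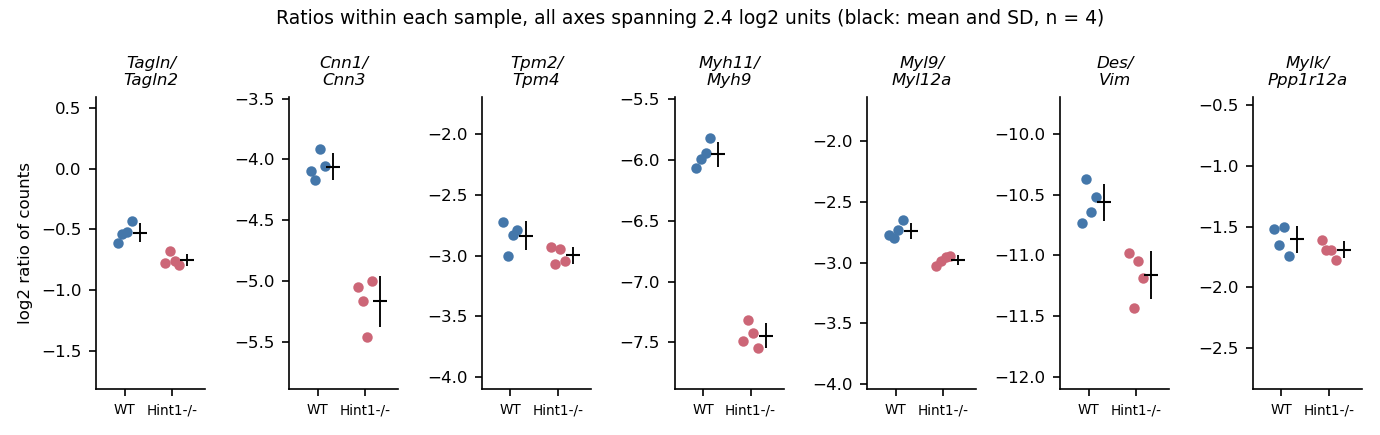
Log2 ratio of the counts of 2 members in each sample (vertical axis), for 7 ratios, with WT in blue, *Hint1*-/- in red, and the mean and SD of 4 samples in black, each panel spanning the same number of log2 units. The genotypes are apart in 5 panels and overlap for *Tpm2* over *Tpm4* and *Mylk* over *Ppp1r12a*.

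Levels were compared between genes as CPM per kilobase of all annotated exons. In WT samples the highest members were *Vim* at 796 ± 27.5, *Tpm4* at 432 ± 5.37, *Acta2* at 376 ± 20.3, *Tagln2* at 279 ± 15.7, and *Tagln* at 202 ± 6.15 CPM per kilobase (SD, n = 4 each). This order depends on the length used. With the longest transcript of each gene, 12 members moved by over 1.5 times, and *Tpm3* (333) and *Myl12a* (265) lay above *Tagln* (252 CPM per kilobase). The order of *Acta2* and *Tagln2* turned in *Hint1*-/- samples, where they were at 263 ± 7.09 and 303 CPM per kilobase. Several neighbors, such as *Cnn3* (82.7 ± 2.36) and *Csrp1* (82.5 ± 2.44), lay within each other's spread. The genes with the largest fall were expressed far lower per length, *Actg2* at 10.5 ± 0.887, *Cnn1* at 5.52 ± 0.479, and *Myh11* at 2.68 ± 0.136 CPM per kilobase in WT. *Myh11* was thus low beside *Myh9* (97.6 ± 2.92) and *Myh10* (12.0 ± 0.478) in both genotypes. The lowest tested member was *Smtnl2* at 0.150 CPM per kilobase.

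**Figure D4:**
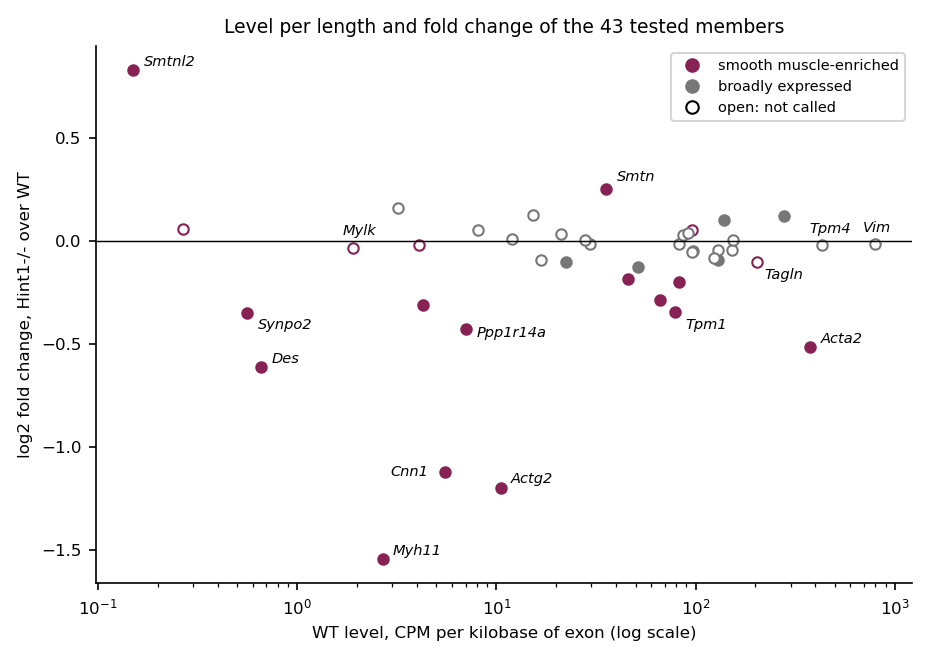
WT level in CPM per kilobase of exon (horizontal axis, log scale) against the log2 fold change of *Hint1*-/- over WT (vertical axis) for the 43 tested members, with smooth muscle-enriched members in red, members expressed in many cell types in gray, and open points for those not called. *Acta2*, at 376 CPM per kilobase, is the only member above 100 CPM per kilobase with a log2 fold change beyond 0.2 in size, and *Myh11*, *Cnn1*, and *Actg2* lie between 2.68 and 10.5.

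Other genes of the same pathways were read from 3 lists. These were chosen with earlier results of these data known, so their counts are a description and not separate support. Of 34 other genes of the actin cytoskeleton and smooth muscle, 33 were tested and 10 were called, 9 lower and 1 higher, with a median log2 fold change of −0.059. The share called was 30.3%, beside 21.5% of all tested genes and 29.7% of those with at least 50 CPM, a level not all listed genes reached. By direction, 27.3% were lower (background 10.2%) and 3.03% were higher (background 11.2%). Those called included *Myh14*, a nonmuscle myosin heavy chain (log2 fold change −0.49, adjusted p = 0.0083), and *Fhl2*, a LIM-domain cofactor (−0.21, adjusted p = 0.0036). Of 18 genes of the RhoA and ROCK pathway, which promotes contraction and the entry of myocardin-related factors into the nucleus, 4 were called, close to the background share. *Rnd3*, an antagonist of RhoA (log2 fold change 0.24, adjusted p = 0.0034), *Arhgef12* (0.14), and *Ppp1cb* (0.093) were higher and *Rhoc* (−0.12) was lower. The 6 factors that oppose or compete with myocardin held 1 call, a share of 16.7%, below the background of 21.5%. It was *Klf4*, a repressor of smooth muscle genes, which was higher (log2 fold change 0.26, SE 0.033, adjusted p = 1.3e-05). *Klf4* had 3128 to 3353 counts in WT and 3766 to 3974 in *Hint1*-/- samples, with no overlap. Any link between *Klf4* and the members was not tested. The other 5 of these factors were not called.

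Some of the markers listed for other cell types, and the proliferation genes, also moved with genotype. Which cells expressed them was not tested, nor was their part in the results above. The background for the counts below is 21.5% of all tested genes called, 10.2% lower and 11.2% higher. Of 8 macrophage markers 7 were lower in *Hint1*-/- samples, with a summed level of 2487 to 2853 CPM in WT and 2049 to 2193 CPM in *Hint1*-/-, the ranges being apart. Of 7 tested markers of Schwann cells and neural crest 6 were lower (48.2 to 54.9 CPM in WT and 12.8 to 14.7 in *Hint1*-/-), as were 4 of 6 pericyte markers (121 to 140 and 86.2 to 92.4 CPM). Fibroblast markers went both ways, 3 higher and 3 lower of 8, at 7891 to 8729 and 8079 to 8684 CPM. Of 10 cardiac muscle markers 4 were tested and 3 were higher, at summed levels of 1.82 to 2.64 CPM in WT and 5.64 to 9.38 CPM in *Hint1*-/- samples. Some of these 4 passed the filter on low counts only through the *Hint1*-/- samples, where they were high. The number called higher is thus not a result about these markers. None of 5 tested endothelial markers was called (5.81 to 8.51 and 5.48 to 7.68 CPM), and the single tested skeletal muscle and adipocyte markers were not called, with sums of 1.10 to 2.06 and 1.31 to 2.12 CPM and of 48.0 to 55.1 and 50.7 to 58.0 CPM. All 6 proliferation markers were called, 4 higher and 2 lower, at 743 to 796 CPM in WT and 789 to 827 CPM in *Hint1*-/- samples. Of the 6 adipocyte markers, *Lep* was not analysed here, and no other marker of these lists was at 0 in all 8 samples.

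**Figure D5:**
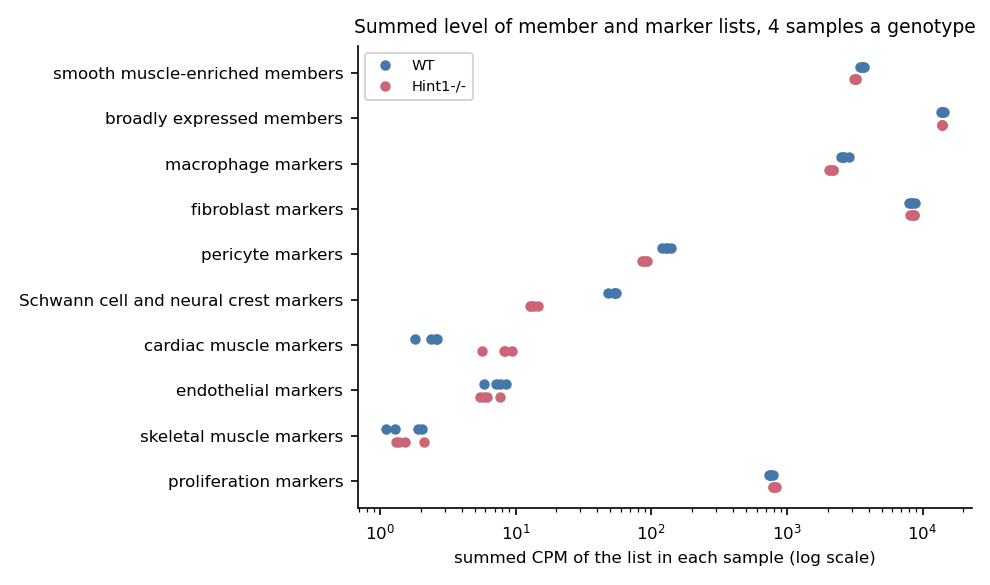
Summed CPM of each list in each sample (horizontal axis, log scale), with 4 WT (blue) and 4 *Hint1*-/- (red) samples per list. The smooth muscle-enriched members lie at 3479 to 3693 CPM in WT and 3125 to 3229 CPM in *Hint1*-/- samples, and the macrophage, pericyte, and Schwann cell and neural crest markers are also lower in *Hint1*-/- samples, whereas the cardiac muscle markers are higher.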

How the data were processed

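RNA-Seq of poly(A)-enriched RNA was analysed for 4 WT and 4 *Hint1*-/- MASMC samples. The authors deposited expected counts per gene symbol, without normalization. The submitters' processing notes name RSEM 1.3.1, Bowtie2, and mm10, whereas the study's methods name Hisat2 and 50-base reads. Counts (67.3% to 67.8% whole) were rounded. R 4.3.3 with edgeR 4.0.16 was used (filterByExpr, TMM, glmQLFit, and glmQLFTest, two-sided, genotype as the only term), with Benjamini-Hochberg adjustment over 13535 genes. A gene was called at an adjusted p under 0.05, and a second rule added the study's fold limit of 1.5. CPM was computed by edgeR from TMM-scaled library sizes. SE is the size of the log2 fold change divided by the square root of the F statistic. Ratios used counts plus 0.5. Exon lengths, overlaps, and positions came from GENCODE M21, and promoter windows from RefSeq (GRCm38.p6). Libraries of 1 genotype differed by more than sampling noise (chi-square per gene 2.07 to 5.25), so all 8 were kept. The common biological coefficient of variation was 3.79%, and counting intervals cover counting error only.

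The members and lists were chosen with earlier results of these data known. Values in every sample are given for members past both thresholds, the 10 largest changes among those called, *Acta2*, *Tagln*, *Cnn1*, *Myh10*, *Vim*, *Myh11*, *Srf*, and the coactivators. Of the wider lists, the 3 largest changes among called genes are named, except for results that are not reported here. Any other gene given by name was picked with its values in view. Fits were tested on simulated data. Alternatives were DESeq2's size factors, upper-quartile scaling, library sizes that leave out the 20 genes with most counts, no low-count filter, at least 10 counts in every sample, a replicate block, each sample left out, DESeq2 1.42.0, limma-voom (limma 3.58.1), glmTreat, log2 CPM with a prior count of 2 for the ratios, and longest-transcript lengths for the levels.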

Additional observations from a re-analysis of the deposited data

Results flagged for a closer look

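Of 112 sets of 4 values examined (each member on the log2 CPM scale, each ratio, and each of 4 library measures, in each genotype), 1 held a sample far from the other 3: *Acta2* in WT replicate 2, whose gap to the nearest WT sample was 0.837 of the whole WT range. Chance gives about 1 such flag in 20 sets, or 5.6 here. WT replicate 2 had the lowest *Acta2* count of the WT samples, 15956, against a highest *Hint1*-/- count of 12331, and *Acta2* stayed called without it.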

How the results depend on the processing

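Of the 19 called members, 14 stayed past the threshold in the same direction under all 16 alternatives, and *Tagln2*, *Tpm3*, *Smtnl2*, *Vcl*, and *Actn1* lost the call under at least 1. Of the members not called, *Tagln*, *Actn4*, *Csrp2*, *Mrtfa*, and *Mrtfb* passed under at least 1. The number of members called was 15 to 20. The number called higher was 4, with 2 under upper-quartile normalization and 1 to 3 with 1 sample left out. The number past the fold limit was 5, with 3 under glmTreat, which tests against the limit itself, and 3 to 5 with 1 sample left out. Over all genes, 383 passed the fold limit and 108 passed glmTreat.

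With 1 sample left out, the 5 ratios apart between genotypes could not pass, since 0.0571 is the smallest exact permutation p of 3 samples against 4. Their log2 differences were −0.255 to −0.194 for *Tagln*/*Tagln2*, −1.17 to −1.01 for *Cnn1*/*Cnn3*, −1.54 to −1.45 for *Myh11*/*Myh9*, −0.262 to −0.212 for *Myl9*/*Myl12a*, and −0.658 to −0.51 for *Des*/*Vim*. The direction turned for 9 members near 0 that were not called. Under upper-quartile normalization the log2 fold change was −0.00145 for *Myh10*, −0.00583 for *Flna*, and −0.00867 for *Srf*, and with at least 10 counts in every sample −0.00101 for *Srf*. With 1 sample left out it was −0.0313 to 0.0016 for *Cnn3*, −0.00629 to 0.0363 for *Myh10*, −0.00113 to 0.0603 for *Myl6*, −0.0431 to 0.0142 for *Ppp1r12b*, −0.0346 to 0.00542 for *Vim*, −0.0154 to 0.124 for *Synm*, −0.0272 to 0.0252 for *Flna*, −0.048 to 0.00713 for *Pdlim7*, and −0.0168 to 0.0257 for *Srf*. Apart from settings with fewer samples, or a test against the limit itself, the cause was not tested.

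Samples of the 2 genotypes share replicate numbers, but same-numbered samples did not deviate together (r across genes −0.045 to 0.0814, against −0.0704 to 0.13 for other pairs), and 3 of 8 samples correlated best with their own number. With the replicate number as a block, 19 members were called, as without it, and 3082 genes against 2907. Of the 10 members with the highest level per length, 8 were among the highest 10 with the longest transcript's length. Depth limited *Myocd*, *Pdlim3*, *Smtnl2*, *Synm*, and *Des*, which had 59 counts or fewer in each sample.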

Other observations

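Of the 45 members, 4 lie on chromosome 11, as *Hint1* does (54866383 to 54870501 in mm10). *Myocd* lies 10.3 Mb, *Myh10* 13.8 Mb, *Smtnl2* 17.5 Mb, and *Smtn* 51.3 Mb from it. *Smtn* and *Smtnl2* were called higher, *Myh10* was not called, and *Myocd* was not tested.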
